A study of Saccharomyces cerevisiae with 15 samples.

Results

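The 7 yeast genes *YGR035C*, *YGR079W*, *YNR064C*, *YCR016W*, *YMR206W*, *YNR014W* and *YOR289W*, known mainly by these systematic names, were followed on the sense and antisense strands in strains with too little or too much of the H3K4 methylation enzymes. They were picked by name from 5712 sense transcripts because their levels in these mutants had been seen to differ strongly from WT, so their differences between strains are given as a description and not as a test. RNA was measured by strand-specific RNA-seq after removal of ribosomal RNA in 15 libraries, 3 independent cultures of each of 5 strains. The tested strains were *jhd2Δ*, which lacks the H3K4 demethylase gene, *set1Δ*, which lacks the H3K4 methyltransferase gene, a strain that overexpresses *SET1* and a strain that overexpresses *SET1-G990E*, the allele the study describes as hyperactive. WT was the strain HTABWT. In the deletion strains a KanMX cassette stands in place of the gene, and in the overexpression strains a Flag-tagged *SET1* or *SET1-G990E* driven by the *ADH1* promoter was integrated at *URA3* beside the native *SET1*. The study's strain list gives these integrated copies with a *URA3* marker, which it does not list for WT or the deletion strains. Against those strains, the marker and the overexpression cannot be told apart. All strains, WT included, are MATa, carry lys2-128delta, ura3-52 and a *HIS3* deletion (his3delta20 in the labels, his3Δ200 in the study's strain list), lack both chromosomal *HTA-HTB* loci and live on a plasmid-borne *HTA1-HTB1* copy (CEN *HIS3*). Cells came from mid-log cultures in YPAD, a rich glucose medium. The *JHD2* deletion was made in the parent strain before its histone plasmid was exchanged, the other mutants were made from HTABWT, and each genotype was a single strain, so a difference between strains cannot be told apart from a further difference that such a strain may carry.

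Set1 is the catalytic subunit of COMPASS, the complex that places methyl groups on lysine 4 of histone H3 at the start of transcribed genes, and Jhd2 takes them off again. Of the genes described here, *YGR035C* encodes a small protein whose transcript is known as a target of the drug resistance regulators, and it has a duplicate, *YLR346C* (CIS1), which is induced when import into mitochondria is blocked. *YGR079W* encodes a protein of unknown function. *YNR064C* encodes an epoxide hydrolase of the alpha/beta hydrolase fold, an enzyme type that opens reactive epoxide rings. *YCR016W*, named *RBP95* in the RefSeq annotation, encodes a nucleolar RNA-binding protein of early large ribosomal subunit assembly. *YMR206W* and *YNR014W* are a pair kept from the ancient whole-genome duplication of yeast and have no assigned function. *YOR289W* encodes a member of the conserved AMMECR1 family, and its transcript is known to be induced by DNA damage.

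The genes lie at separate places of the genome (sacCer3, identical in these coordinates to RefSeq R64). *YGR035C* occupies chromosome VII 557072-557422 on the minus strand with 116 codons, and *YGR079W* chromosome VII 640720-641832 on the plus strand with 370 codons. *YNR064C* occupies chromosome XIV 749136-750008 on the minus strand, 34.3 kb from the chromosome end, and *YNR014W* chromosome XIV 652465-653103 on the plus strand. *YCR016W* occupies chromosome III 143634-144506, *YMR206W* chromosome XIII 675896-676837 and *YOR289W* chromosome XV 853357-854112, all on the plus strand.

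The duplicate pair is shown because its members share little sequence yet were both lower in all 4 mutants. In a global alignment of the encoded proteins, 69 of 202 aligned codons of *YMR206W* and *YNR014W* (34.2%) encode the same residue. In the 20-codon stretch of that alignment with the most shared residues, 17 of 20 codons encode the same residue and 45 of 60 bases are the same. These 60 bases, from the genome of RefSeq R64 and read 5′ to 3′ along each gene, are printed with the shared bases in capitals.
YMR206W, chrXIII:676751-676810, plus strand: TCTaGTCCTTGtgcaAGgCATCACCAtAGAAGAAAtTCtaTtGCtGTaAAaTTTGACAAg
YNR014W, chrXIV:653017-653076, plus strand: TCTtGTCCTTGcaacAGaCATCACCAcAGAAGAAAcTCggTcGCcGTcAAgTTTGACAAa
The stretch lies near the end of both coding sequences, at codons 286 to 305 of *YMR206W* and codons 185 to 204 of *YNR014W*. How reads that match 2 places were counted is not given in the sources used here.

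The other duplicate pair, *YGR035C* and *YLR346C*, is shown for comparison, since only *YGR035C* was picked for its mutant levels. Of 93 aligned codons 25 encode the same residue (26.9%), and in the most alike 20-codon stretch 38 of 60 bases are the same.
YGR035C, chrVII:557201-557260, minus strand: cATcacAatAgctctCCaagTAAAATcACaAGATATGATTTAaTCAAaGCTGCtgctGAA
YLR346C, chrXII:822410-822469, minus strand: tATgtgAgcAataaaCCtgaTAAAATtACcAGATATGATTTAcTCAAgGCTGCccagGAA

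Promoter windows, 250 bases before to 50 bases after the first base of the coding sequence, were searched on both strands for exact letters of 6 known motifs. PAC (GATGAG) and RRPE (AAAATTTT) are motifs of ribosome assembly genes, and in the 124 promoters of the ribosome assembly list described below they were present in 91.1% and 75.8%. Of all 6001 protein-coding promoters, 20.4% held PAC and 9.03% held RRPE. The genes *YGR035C*, *YGR079W* and *YCR016W* held PAC and the other 4 genes did not, and *YCR016W* alone of the 7 held RRPE. The matches are printed with the motif letters in capitals, because these genes were the ones higher in every mutant.
YGR035C, chrVII:557600-557627, minus strand: gcagaaaaaaaGATGAGatacagttttg
YGR079W, chrVII:640702-640731, plus strand: tataaagGATGAGATGAGATGAGcagtgcc
YCR016W (PAC), chrIII:143533-143560, plus strand: gaacgaaaagaGATGAGctaaattcaaa
YCR016W (RRPE), chrIII:143500-143529, plus strand: gcaaattattgAAAATTTTcgagcgagaaa
Counted back from the start codon, the *YGR035C* match began at base -194 and the *YCR016W* matches at -90 for PAC and -123 for RRPE. The *YGR079W* stretch holds 3 overlapping matches that began at -11, -6 and -1, so the last one runs into the start codon, and a match there is a description of the letters alone.

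The general stress element STRE (AGGGG, found in 21.6% of all windows) was present in *YNR014W* alone, and the oxidative stress site of Yap1 (TTANTAA, 17.9%) in *YNR064C* alone.
YNR014W (STRE, read on the opposite strand), chrXIV:652239-652265: gaaggtttcgaCCCCTcggtgccgttt
YNR064C (Yap1 site), chrXIV:750229-750257, minus strand: attcacctttgTTATTAAcatagtcattt
The drug response element PDRE (TCCGNGGA, 1.22% of all windows) was matched in none of the 7 upstream windows, with a single match inside the first codons of *YNR014W*. TATAAA (45.2% of all windows) was present in *YGR035C*, *YGR079W* and *YOR289W*.

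Sense counts summed to between 6903094 and 8947346 per library and antisense counts to between 72664 and 106762. The targeted genes followed the labels. *SET1* had 33 to 46 counts in *set1Δ* libraries, 35966 to 42631 in overexpression libraries and 822 to 908 in WT libraries, and *JHD2* had 0, 0 and 2 counts in *jhd2Δ*, against 169 to 198 in WT. All 6 MATa markers were present, with a summed count of 7261 to 13914 per library. The sums were lowest in *set1Δ* (7261 to 7579), against 11724 to 12170 in WT. The 4 MATalpha genes summed to 342 to 493 counts, most of it *SAG1* (239 to 387). *STE3* had 43 to 98 counts, and the alpha-factor genes *MF(ALPHA)1* and *MF(ALPHA)2* had at most 27 and 21. The second *set1Δ* culture stood apart from the other 2 for *YMR206W* and *YGR079W*, and the 3 *set1Δ* cultures were widely spread for *YNR014W*, so values without single *set1Δ* cultures are given with those genes.

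*YGR035C* was low in WT and higher in every library of every mutant. Its raw sense counts were 114, 95 and 115 in *jhd2Δ*, 37, 26 and 38 in *set1Δ*, 71, 46 and 76 in *SET1* overexpression, 116, 97 and 87 in *SET1-G990E* overexpression, and 19, 24 and 25 in WT. Normalized to a common library size, the levels were 106 ± 12.0 in *jhd2Δ*, 37.5 ± 7.13 in *set1Δ*, 91.8 ± 13.3 with *SET1-G990E* and 67.0 ± 12.8 with *SET1* overexpression, against 21.8 ± 2.54 in WT (mean ± SD, n = 3 in each strain, as for all levels below). In order of level, *jhd2Δ* and *SET1-G990E* overexpression overlapped, and *SET1* overexpression, *set1Δ* and WT followed, each with all 3 libraries below those of the strain before. Against WT the log2 fold changes (± standard error) were 2.26 ± 0.19 in *jhd2Δ*, 0.78 ± 0.24 in *set1Δ*, 1.62 ± 0.21 with *SET1* and 2.06 ± 0.19 with *SET1-G990E* overexpression. The *set1Δ* difference rests on few counts: without the first or the third *set1Δ* culture it was 0.70 with either left out, and the gene was then no longer called. In RNA from whole cultures a change in how many cells hold a transcript and a change in its level per cell cannot be told apart.

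*YGR079W*, with more counts than *YGR035C*, was likewise highest in *SET1-G990E* overexpression and *jhd2Δ* and lowest in WT. It had 286, 217 and 243 counts in *jhd2Δ*, 109, 63 and 111 in *set1Δ*, 125, 170 and 206 in *SET1* overexpression, 277, 316 and 219 in *SET1-G990E* overexpression, and 62, 46 and 60 in WT. Every mutant library was above every WT library once normalized, and the lowest of the mutant libraries was the second *set1Δ* culture. The normalized levels were 243 ± 38.6 in *jhd2Δ* and 247 ± 31.8 in *SET1-G990E* overexpression, which overlapped, 175 ± 37.9 in *SET1* overexpression, 105 ± 29.5 in *set1Δ* and 54.2 ± 9.48 in WT, each of the last 3 apart from the strain before it. The log2 fold changes against WT were 2.17 ± 0.21 in *jhd2Δ*, 0.96 ± 0.24 in *set1Δ*, 1.70 ± 0.22 with *SET1* and 2.19 ± 0.20 with *SET1-G990E*. Without the second *set1Δ* culture the *set1Δ* value was 1.17.

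**Figure D1:**
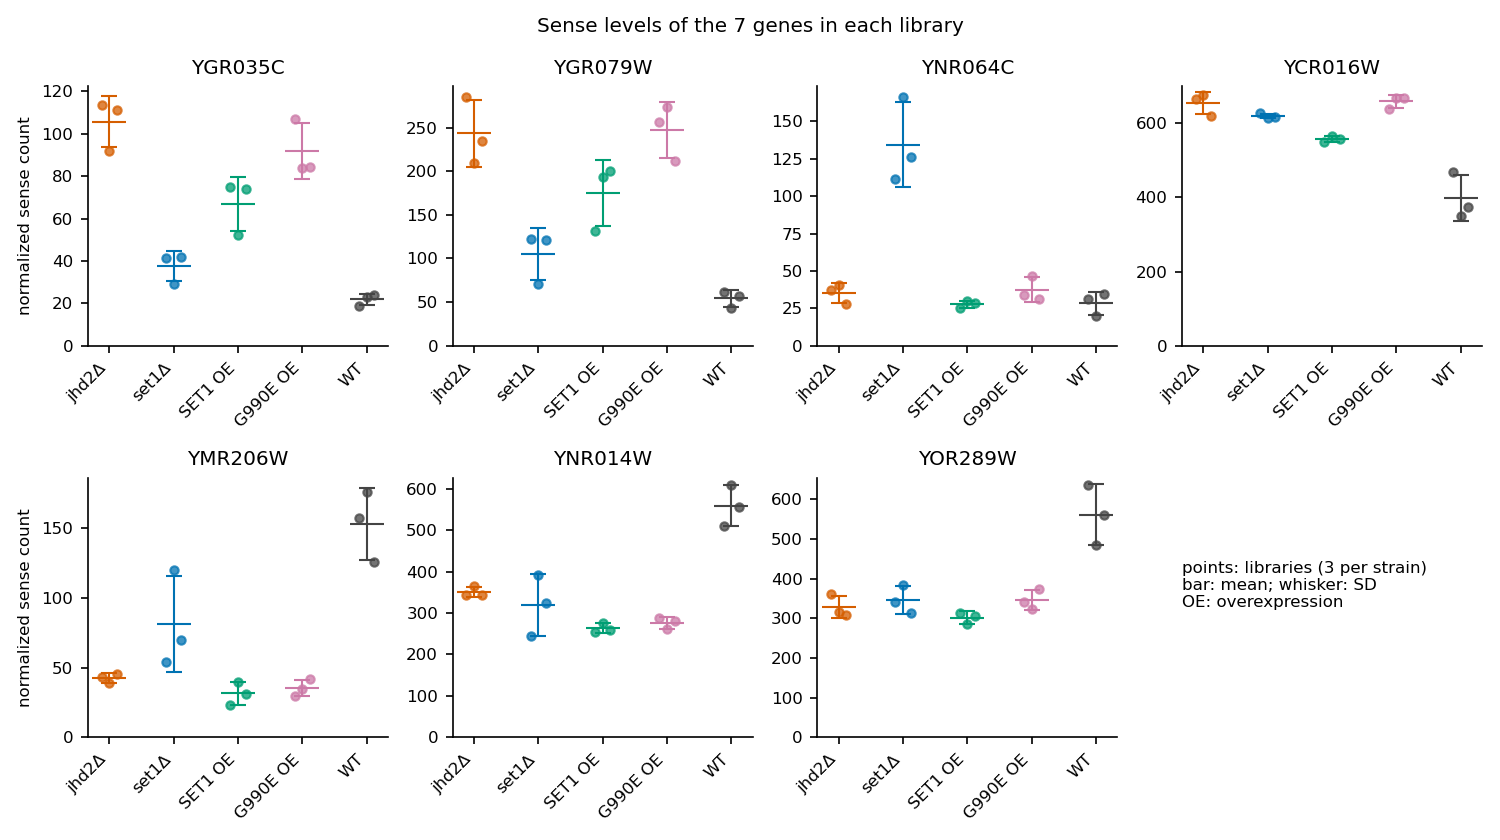
Normalized sense counts (y axes, from 0) of the 7 genes in each library, by strain (x axes), with OE for overexpression. Points are the 3 libraries of a strain, the bar is their mean and the whisker their SD. *YGR035C*, *YGR079W* and *YCR016W* sit above WT in every mutant library, *YNR064C* in *set1Δ* alone, and *YMR206W*, *YNR014W* and *YOR289W* sit below WT in every mutant library.

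*YNR064C*, the epoxide hydrolase gene, had a pattern unlike the other 6: it stood high in *set1Δ* and near WT elsewhere. It had 37, 42 and 29 counts in *jhd2Δ*, 99, 148 and 115 in *set1Δ*, 24, 26 and 29 in *SET1* overexpression, 37, 54 and 32 in *SET1-G990E* overexpression, and 31, 21 and 36 in WT. The lowest *set1Δ* library was thus above the highest of the 12 others, and in order of level each of the other 4 strains overlapped the next. The normalized level was 135 ± 28.6 in *set1Δ*, while the other mutants had 35.2 ± 6.46 in *jhd2Δ*, 37.3 ± 8.34 with *SET1-G990E* and 27.7 ± 2.19 with *SET1* overexpression, against 28.4 ± 7.52 in WT. The log2 fold change was 2.24 ± 0.20 in *set1Δ* and stayed between 2.05 and 2.41 when any 1 of the 6 libraries compared was left out. In the other strains it was 0.31 ± 0.25 in *jhd2Δ*, -0.03 ± 0.27 with *SET1* and 0.41 ± 0.25 with *SET1-G990E*.

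*YCR016W*, the ribosome assembly factor gene, was the most counted of the genes that stood higher in the mutants and had the smallest differences. Its counts were 666, 699 and 641 in *jhd2Δ*, 558, 546 and 564 in *set1Δ*, 521, 498 and 572 in *SET1* overexpression, 692, 773 and 690 in *SET1-G990E* overexpression, and 470, 370 and 394 in WT. The WT libraries were spread more widely than those of any mutant, with 398 ± 62.5 normalized counts, and all mutant libraries were above them. The levels were 659 ± 16.8 in *SET1-G990E* overexpression, 653 ± 29.6 in *jhd2Δ* and 619 ± 6.54 in *set1Δ*, which overlapped in turn, and 557 ± 8.69 in *SET1* overexpression, which lay apart below them. The log2 fold changes were 0.72 ± 0.08, 0.64 ± 0.08, 0.49 ± 0.08 and 0.73 ± 0.08 in *jhd2Δ*, *set1Δ*, *SET1* overexpression and *SET1-G990E* overexpression. These lie close to the 1.5-fold threshold for a call, and WT cultures moved 2 of them across it: the *set1Δ* value was 0.56 without the second WT culture, and the *SET1* overexpression value 0.62 without the first.

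*YMR206W* was lower than in WT in all 4 mutants, and lowest in the overexpression strains. It had 43, 40 and 47 counts in *jhd2Δ*, 48, 107 and 64 in *set1Δ*, 22, 35 and 32 in *SET1* overexpression, 32, 40 and 43 in *SET1-G990E* overexpression, and 158, 186 and 132 in WT. No mutant library reached the lowest WT library, and the second *set1Δ* culture came closest. The normalized levels were 81.4 ± 34.6 in *set1Δ*, 42.3 ± 3.43 in *jhd2Δ*, 35.3 ± 6.04 with *SET1-G990E* and 31.4 ± 8.31 with *SET1* overexpression, against 153 ± 25.6 in WT. The last 3 mutants overlapped in turn, and *set1Δ* lay apart between them and WT. The log2 fold changes were -1.85 ± 0.22 in *jhd2Δ*, -0.91 ± 0.20 in *set1Δ*, -2.29 ± 0.24 with *SET1* and -2.12 ± 0.23 with *SET1-G990E*. The *set1Δ* value was -1.30 without the second *set1Δ* culture and -0.69 without the first.

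*YNR014W*, its duplicate, was also lower in every mutant library, at a higher level and with smaller differences. It had 343, 378 and 355 counts in *jhd2Δ*, 217, 349 and 295 in *set1Δ*, 242, 243 and 266 in *SET1* overexpression, 311, 301 and 290 in *SET1-G990E* overexpression, and 512, 643 and 585 in WT. The 4 mutants overlapped in turn and WT lay apart above them. The levels were 350 ± 13.0 in *jhd2Δ*, 320 ± 74.4 in *set1Δ*, 276 ± 13.9 with *SET1-G990E* and 263 ± 11.3 with *SET1* overexpression, against 559 ± 49.2 in WT. The log2 fold changes were -0.67 ± 0.11 in *jhd2Δ*, -0.81 ± 0.11 in *set1Δ*, -1.09 ± 0.12 with *SET1* and -1.02 ± 0.11 with *SET1-G990E*. The *set1Δ* value was -0.98 without the second *set1Δ* culture, the highest of that strain for this gene as for *YMR206W*, and -0.64 without the first, the lowest. Across the 15 libraries the log2 CPM (counts scaled to the normalized library size) of the duplicates had a Pearson correlation of 0.87. This is a description in which the libraries of a strain and the library sizes are shared, and 156 transcripts were closer to *YMR206W* than *YNR014W* was.

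*YOR289W*, the DNA damage-induced gene, was lower by a similar amount in all mutants. Its counts were 361, 326 and 320 in *jhd2Δ*, 304, 342 and 285 in *set1Δ*, 298, 250 and 315 in *SET1* overexpression, 368, 374 and 387 in *SET1-G990E* overexpression, and 639, 511 and 590 in WT. In order of level each mutant overlapped the next, and WT lay apart above them all. The levels ran from 302 ± 15.5 with *SET1* overexpression to 346 ± 25.9 with *SET1-G990E* and 346 ± 36.4 in *set1Δ*, with *jhd2Δ* at 328 ± 28.0, against 561 ± 76.7 in WT. The log2 fold changes were -0.77 ± 0.10 in *jhd2Δ*, -0.70 ± 0.10 in *set1Δ*, -0.89 ± 0.10 with *SET1* and -0.70 ± 0.10 with *SET1-G990E*.

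The 4 comparisons with WT share the 3 WT libraries, so that a WT culture that stood high or low moves all 4 values of a gene together. A transcript counted as called when edgeR's quasi-likelihood test gave an adjusted p (Benjamini-Hochberg) under 0.05 with a change of 1.5-fold or more. Of the 7 genes, 3 were called higher and 3 lower in *jhd2Δ* (of all 5619 transcripts tested, 12.2% were called), and 4 higher and 3 lower in *set1Δ* (8.58%). With *SET1* overexpression 2 were called higher and 3 lower (7.69%), and with *SET1-G990E* overexpression 3 higher and 3 lower (12.0%). These contrasts chose the genes, so nothing is read from their share of calls. The uncalled ones were *YNR064C* in *jhd2Δ* and in both overexpression strains, and *YCR016W* in *SET1* overexpression. When the 1.5-fold threshold itself was tested, 3 of the 7 were still called in *jhd2Δ* and 1 in *set1Δ*. With *SET1-G990E* overexpression *YCR016W* and *YOR289W* were then no longer called, and with *SET1* overexpression no call was lost.

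**Figure D2:**
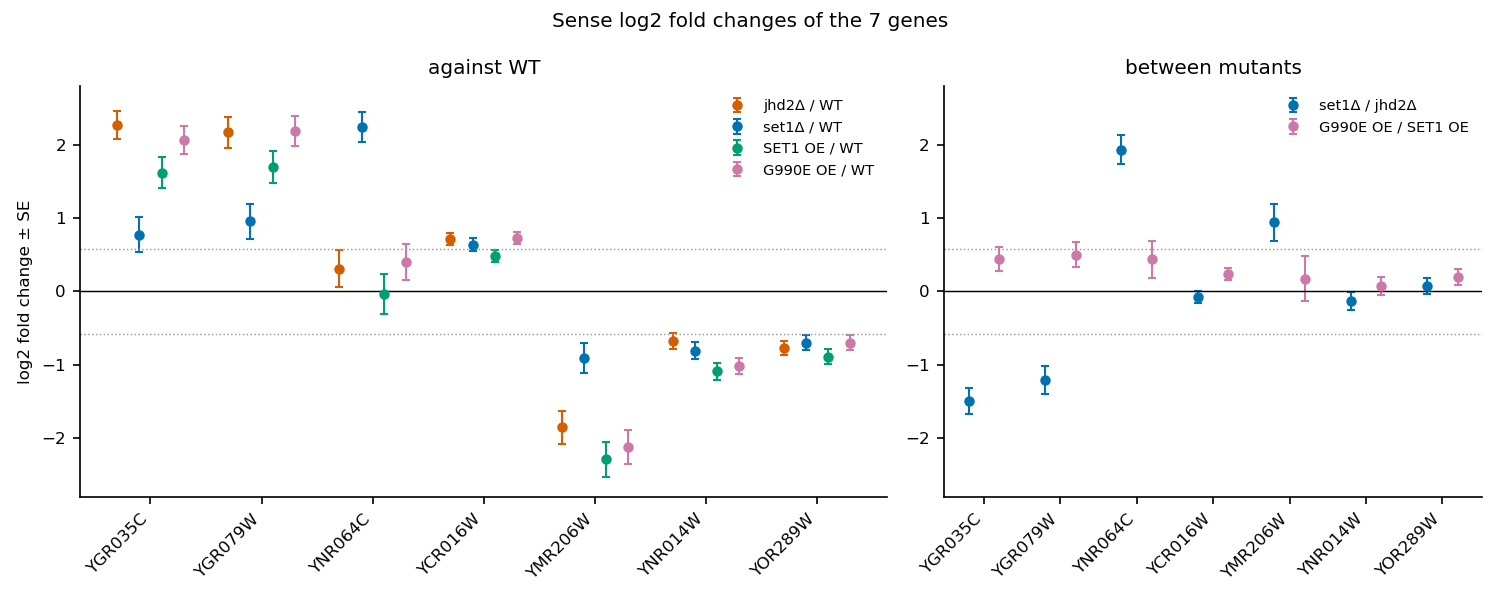
Log2 fold changes of sense counts (y axes) with standard errors for each gene (x axes), on the left for the 4 mutants against WT and on the right for the deletions (*set1Δ* against *jhd2Δ*) and the overexpression strains (OE; *SET1-G990E* against *SET1*). Dotted lines mark 1.5-fold in either direction. *YNR064C* departs from 0 in *set1Δ* alone, at 2.24, and the *SET1-G990E* to *SET1* differences lie between 0.07 and 0.50.

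Set against each other, the deletions differed for 4 of the genes and overlapped for the other 3. These values come from the libraries that chose the genes and are given as a description, with the 95% interval from the standard error. *YGR035C* was lower in *set1Δ* than in *jhd2Δ* by a log2 value of -1.49 (-1.84 to -1.14) and *YGR079W* by -1.21 (-1.58 to -0.84), while *YNR064C* was higher by 1.93 (1.55 to 2.31). For these genes the libraries of the deletions did not overlap. *YMR206W* was higher in *set1Δ* by 0.94 (0.45 to 1.44), again with no overlap, and this rests in part on the second *set1Δ* culture, without which the value was 0.55 and the gene was not called. *YCR016W* (-0.08, interval -0.23 to 0.08), *YNR014W* (-0.13, -0.36 to 0.10) and *YOR289W* (0.08, -0.13 to 0.28) overlapped between the deletions. Of the 7 genes 2 were called higher and 2 lower, beside 8.31% of all transcripts tested. Nothing is read from this count or from how many genes overlapped.

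The overexpression strains were also set against each other, with values described in the same way. The log2 differences of *SET1-G990E* from *SET1* overexpression were 0.44 (95% interval 0.13 to 0.75) for *YGR035C*, 0.50 (0.16 to 0.83) for *YGR079W* and 0.44 (-0.06 to 0.93) for *YNR064C*. They were 0.24 (0.09 to 0.40) for *YCR016W* and 0.20 (-0.01 to 0.40) for *YOR289W*. For these 5 genes all *SET1-G990E* libraries were above the *SET1* libraries. How often that holds over all transcripts was not counted, so nothing is read from it. Of the 14 neighbours described below, 2 had all *SET1-G990E* libraries higher and 3 had all lower. *YMR206W* (0.17, -0.43 to 0.78) and *YNR014W* (0.07, -0.17 to 0.31) overlapped. None of the 7 was called by edgeR or by DESeq2, 3 had an unadjusted p under 0.05 with either, and 0.231% of all transcripts tested by edgeR were called in this comparison. These intervals leave room for differences of 1.5-fold for *YGR035C*, *YGR079W*, *YNR064C* and *YMR206W*, and end below that for *YCR016W*, *YNR014W* and *YOR289W*.

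Per kb of gene length the 7 genes covered most of the range of expression, and their ranks moved with the strain. *YGR035C* was above 40.9% of all sense transcripts in *jhd2Δ*, against 7.55% in WT, and *YGR079W* above 29.1% in *jhd2Δ*, against 6.39% in WT. *YNR064C* was above 19.7% in *set1Δ*, against 4.73% in WT. *YMR206W* was above 5.01% in either overexpression strain, against 21.5% in WT. On this scale the 3 lowest genes in WT, *YNR064C*, *YGR079W* and *YGR035C*, had 32.5, 48.7 and 62.2 normalized counts per kb, where the median transcript had 373. In *jhd2Δ* *YCR016W* was above 71.9% of transcripts, against 57.0% in WT, and *YNR014W* above 63.2%, against 74.9% in WT. *YOR289W* was above 52.2% with *SET1* overexpression, against 71.0% in WT. The higher genes in the mutants therefore included 3 that WT cells expressed near the bottom of the range, and none of them reached the median transcript apart from *YCR016W*, which was above it already in WT.

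**Figure D3:**
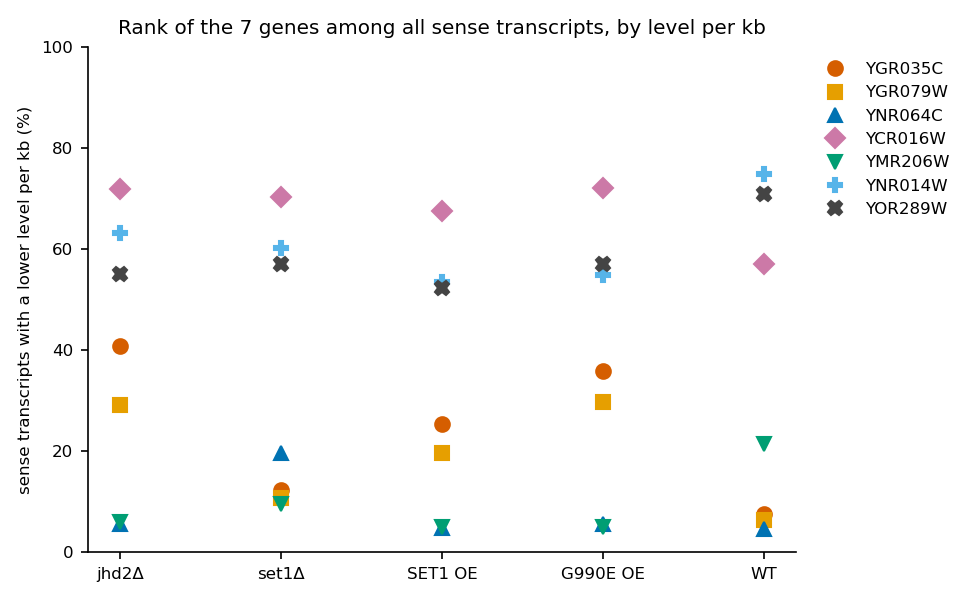
Share of all sense transcripts with a lower normalized count per kb (y axis, percent) for each of the 7 genes in each strain (x axis), from the mean of 3 libraries. *YGR035C* stands at 40.9% in *jhd2Δ* and 7.55% in WT, and *YNR014W* at 63.2% in *jhd2Δ* and 74.9% in WT.

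On the antisense strand, reads over 4 of the 7 genes (*YNR064C*, *YMR206W*, *YNR014W* and *YOR289W*) passed the low-count filter. *YGR035C*, *YGR079W* and *YCR016W*, the genes higher in every mutant, had 0 to 7 antisense counts in any library, and a count of 0 allows up to 3. These 3 genes did not pass the filter, and no antisense difference is given for them. Among the 4 genes that passed, none was called in *jhd2Δ* (6.21% of 2640 antisense transcripts tested were called), *SET1* overexpression (3.52%) or *SET1-G990E* overexpression (6.74%), and 1, *YNR064C*, was called higher in *set1Δ* (12.4%). None was called between *set1Δ* and *jhd2Δ* (13.7%) or between *SET1-G990E* and *SET1* overexpression (0.833%). DESeq2 gave the same counts of calls, and with edgeR 0, 1, 1, 2 and 0 of the 4 had an unadjusted p under 0.05 in the 5 comparisons without a call, in the order given.

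*YNR064C* was read as much on the antisense as on the sense strand outside *set1Δ*. Its antisense counts were 37, 42 and 35 in *jhd2Δ*, 42, 41 and 46 in *set1Δ*, 53, 43 and 53 in *SET1* overexpression, 48, 57 and 62 in *SET1-G990E* overexpression, and 37, 33 and 38 in WT. Per 100 sense counts, *set1Δ* had 36.7 ± 7.89 antisense counts, and the other mutants had 107 ± 11.9 (*jhd2Δ*), 190 ± 28.4 (*SET1*) and 143 ± 45.6 (*SET1-G990E*), against 127 ± 26.7 in WT. All strains other than *set1Δ* thus had at least as many antisense as sense reads over this gene in every library. The antisense log2 fold change in *set1Δ* was 0.72 ± 0.20 when antisense counts were scaled by antisense totals, which were lowest in *set1Δ* (72664 to 76374, against 94812 to 104229 in WT), and 0.46 when scaled by the sense libraries, where it was not called. The antisense and the sense value were both above 0 in *set1Δ*, with the sense difference the larger of the 2.

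*YMR206W* came near to an even balance of strands in the overexpression strains. Its antisense counts were 20, 23 and 19 in *jhd2Δ*, 18, 23 and 11 in *set1Δ*, 31, 25 and 34 in *SET1* overexpression, 38, 46 and 39 in *SET1-G990E* overexpression, and 18, 37 and 28 in WT. Antisense counts per 100 sense counts were 106 ± 34.7 with *SET1* and 108 ± 15.2 with *SET1-G990E* overexpression, 48.1 ± 8.65 in *jhd2Δ* and 25.4 ± 10.7 in *set1Δ*, against 17.5 ± 5.33 in WT. The change of ratio came mostly from the sense strand, since the antisense log2 fold changes were 0.26 ± 0.23 with *SET1* and 0.43 ± 0.22 with *SET1-G990E*, where the sense values were -2.29 and -2.12. *YNR014W*, the duplicate, had at most 8.54 ± 2.68 antisense per 100 sense counts in a mutant, against 3.97 ± 1.72 in WT, and *YOR289W* at most 5.05 ± 0.92 in a mutant, against 2.33 ± 1.38 in WT.

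**Figure D4:**
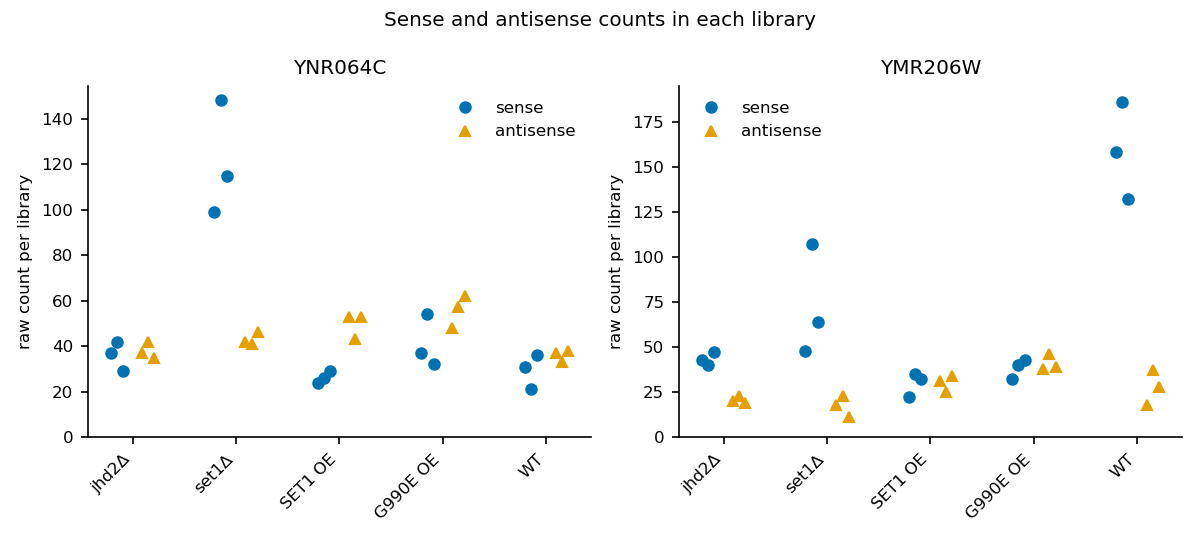
Raw sense counts (circles) and antisense counts (triangles) per library (y axes, from 0) of *YNR064C* and *YMR206W* by strain (x axes), with 3 libraries each. Over *YNR064C* the antisense counts stay between 33 and 62 while the sense counts reach 99 to 148 in *set1Δ*. Over *YMR206W* the sense counts reach down to the antisense counts in the overexpression strains.

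The 14 nearest neighbours of the 7 genes were not picked for their own levels, so their differences were tested. They lie beside chosen genes and come from the same libraries, so these tests are not fully independent of the choice. On the sense strand 2 of the 14 rose and 1 fell in *jhd2Δ*, 2 rose in *set1Δ*, and 1 rose in *SET1* and 3 rose in *SET1-G990E* overexpression. On that strand a single neighbour was higher in *set1Δ* than in *jhd2Δ*, and none was called between the overexpression strains by edgeR or DESeq2 (4 and 3 had an unadjusted p under 0.05). These shares compare with 12.2%, 8.58%, 7.69% and 12.0% of all transcripts against WT. Between the deletions 8.31% of all transcripts were called by edgeR, and between the overexpression strains 0.231%. All sense calls fell on 4 genes, *PAC10*, *YNR063W*, *YSN1* and *SMM1*, so the neighbours of *YGR035C*, *YCR016W*, *YMR206W* and *YOR289W* had none on that strand. On the antisense strand 3 of the 14 were tested. *HFA1*, downstream of *YMR206W*, was higher there in *set1Δ* than in *jhd2Δ* (1.38 ± 0.32, edgeR adjusted p = 0.00074), where 13.7% of antisense transcripts were called. The other antisense calls fell on *YNR063W* and are given below.

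*PAC10*, which encodes a subunit of the prefoldin chaperone, is transcribed away from *YGR079W* across a gap of 348 bp (chromosome VII 639772-640371, minus strand). It had 572, 470 and 597 counts in *jhd2Δ*, 529, 429 and 458 in *set1Δ*, 358, 332 and 400 in *SET1* overexpression, 492, 633 and 455 in *SET1-G990E* overexpression, and 298, 308 and 290 in WT. Every mutant library was above every WT library, as for *YGR079W*. By edgeR's test *PAC10* rose by 0.89 ± 0.10 on the log2 scale in *jhd2Δ* (adjusted p = 1.6e-06), 0.87 ± 0.11 in *set1Δ* (5.2e-06) and 0.74 ± 0.11 with *SET1-G990E* (1.4e-05), and stayed under the 1.5-fold threshold with *SET1* at 0.40 ± 0.11 (0.0069). Unlike *YGR079W*, it did not separate the deletions (*set1Δ* against *jhd2Δ* -0.02 ± 0.10, adjusted p = 0.88). *TWF1*, the twinfilin gene 177 bp downstream of *YGR079W* on the same strand, stayed under 1.5-fold, with values of -0.41 to 0.14 against WT.

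The genes on both sides of *YNR064C* changed as well. *YSN1* (*YNR065C*), which lies 341 bp upstream on the same strand, had 326, 452 and 386 counts in *jhd2Δ*, 912, 1082 and 905 in *set1Δ*, 530, 490 and 641 in *SET1* overexpression, 486, 491 and 510 in *SET1-G990E* overexpression, and 638, 637 and 672 in WT. It rose in *set1Δ* (log2 fold change 0.78 ± 0.09, edgeR adjusted p = 4e-06) and fell in *jhd2Δ* (-0.73 ± 0.10, 8.7e-06), and *set1Δ* was above *jhd2Δ* by 1.51 ± 0.10 (3.5e-09). Like *YNR064C*, it was thus highest in *set1Δ*, and unlike *YNR064C* it was below WT in every *jhd2Δ* library. *YNR063W*, which ends 369 bp beyond the end of *YNR064C* on the opposite strand, rose in *jhd2Δ* (0.64 ± 0.14, adjusted p = 0.00095) and with *SET1* (0.72 ± 0.14, 0.00051) and *SET1-G990E* (0.67 ± 0.14, 0.00058), and had 0.48 ± 0.14 in *set1Δ* (0.012).

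Reads on the strand of *YNR064C* were also seen past its end. The antisense counts of *YNR063W*, which lie on the minus strand as *YNR064C* does, were 13, 14 and 11 in *jhd2Δ*, 25, 18 and 24 in *set1Δ*, 15, 9 and 5 in *SET1* overexpression, 14, 11 and 9 in *SET1-G990E* overexpression, and 4, 9 and 7 in WT. They rose in *set1Δ*, by 2.19 ± 0.35 against WT on the log2 scale (edgeR adjusted p = 4.5e-07) and 1.15 ± 0.30 against *jhd2Δ* (0.0036). Over *YNR064C* itself the sense value in *set1Δ* was 2.24 ± 0.20. Whether these reads belong to the same RNA was not tested.

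**Figure D5:**
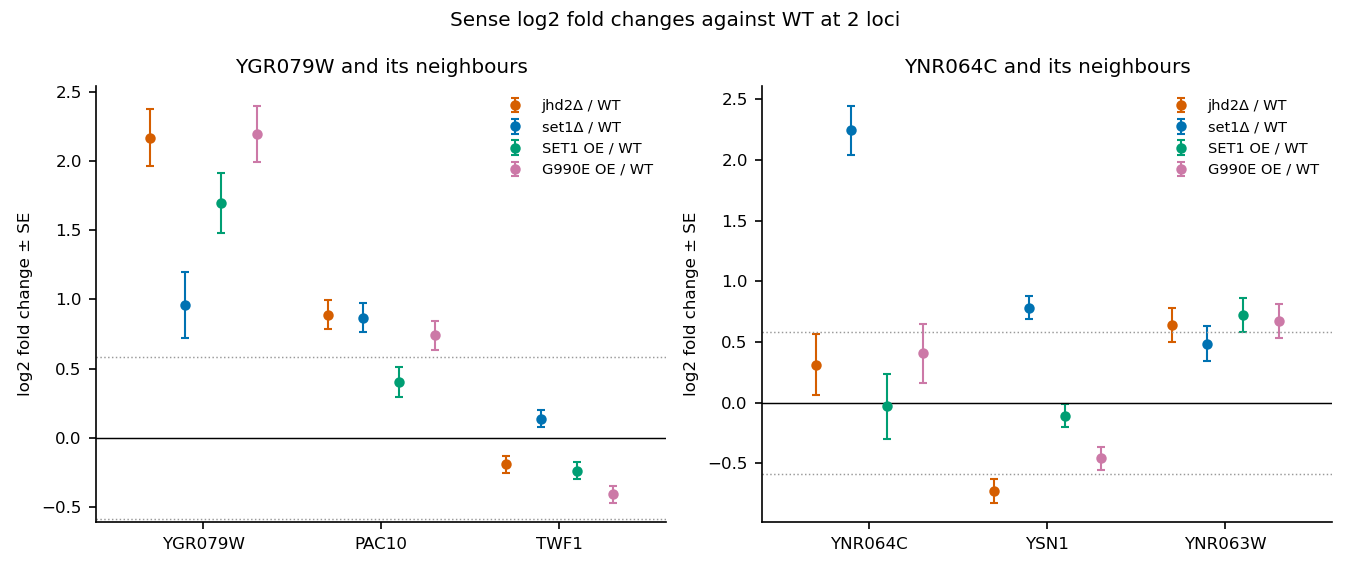
Log2 fold changes against WT of sense counts (y axes) with standard errors for *YGR079W* with *PAC10* and *TWF1*, and for *YNR064C* with *YSN1* and *YNR063W* (x axes), in the 4 mutants (OE, overexpression). Dotted lines mark 1.5-fold in either direction. *PAC10* lies above 0 in all 4 mutants as *YGR079W* does, and *YSN1* stands at 0.78 in *set1Δ* and -0.73 in *jhd2Δ*.

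The tRNA dihydrouridine synthase gene *SMM1*, 283 bp downstream of *YNR014W* on the same strand, moved against it. It rose with *SET1-G990E* overexpression (0.60 ± 0.08, edgeR adjusted p = 9.9e-06) and had values of 0.42 to 0.44 in the other mutants, with all mutant libraries above WT, where *YNR014W* had -0.67 to -1.09. *MPD1*, which encodes a protein disulfide isomerase-like protein and diverges from *YOR289W* over 279 bp, was not called in any comparison, with -0.42 ± 0.08 in *set1Δ* and -0.11 ± 0.08 in *jhd2Δ*. *PFK2*, the phosphofructokinase subunit gene that diverges from *YMR206W* over 1129 bp, stayed between -0.20 and 0.01 against WT.

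*YLR346C*, the duplicate of *YGR035C*, was not part of the choice. It had 27, 42 and 39 counts in *jhd2Δ*, 24, 21 and 30 in *set1Δ*, 22, 21 and 27 in *SET1* overexpression, 33, 38 and 33 in *SET1-G990E* overexpression, and 21, 17 and 26 in WT. By edgeR's test it rose in *jhd2Δ* (log2 fold change 0.77 ± 0.21, adjusted p = 0.0054), where *YGR035C* had 2.26. With *SET1-G990E* it rose by 0.62 ± 0.21 (adjusted p = 0.021), a call that DESeq2 did not make (adjusted p = 0.07). In *set1Δ* and with *SET1* overexpression it had 0.43 ± 0.22 and 0.25 ± 0.23 and was not called.

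Other genes of the drug resistance network, to which *YGR035C* is known to belong, were tested as a list, and nothing is read from the counts of calls. Of 30 tested genes of this list, which holds *YLR346C* but not *YGR035C*, 3 rose and 0 fell in *jhd2Δ* (12.2% of all transcripts were called there), 3 rose and 1 fell in *set1Δ* (8.58%), and 1 rose with *SET1* (7.69%) and 1 with *SET1-G990E* overexpression (12.0%). The list had a median log2 fold change of 0.15, 0.03, 0.11 and 0.14 in this order of strains beside -0.01 or 0.00 over all transcripts. *PDR5*, the main drug efflux pump gene of the network, rose in *jhd2Δ* by 0.75 ± 0.09 on the log2 scale (edgeR adjusted p = 1.2e-06). *TPO2*, a polyamine exporter gene, rose in *jhd2Δ* by 0.71 ± 0.12 (9.2e-05) and with *SET1* overexpression by 0.64 ± 0.12 (0.00039). In *set1Δ* the called genes were *HXT9* (0.87), *ATR1* (0.78), *PDR11* (0.75) and *QDR1* (-0.59).

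Nucleolar ribosome assembly genes, whose proteins act in the process *YCR016W* takes part in, were tested as a list too. This list was written with earlier results of these data known, so nothing is read from its counts of calls. Of 124 tested, none of them among the 7 genes, 82 rose in *jhd2Δ*, 42 in *set1Δ*, 52 with *SET1* and 77 with *SET1-G990E* overexpression, and 0 fell in any of these by edgeR, as by DESeq2, where 12.2%, 8.58%, 7.69% and 12.0% of all transcripts were called in either direction. The list's median log2 fold change was 0.74, 0.50, 0.52 and 0.69, beside *YCR016W* with 0.72, 0.64, 0.49 and 0.73. *DBP8*, an RNA helicase gene of small subunit assembly, rose by 1.93 ± 0.16 in *jhd2Δ* (edgeR adjusted p = 3.4e-08) and by 1.08 ± 0.17 in *set1Δ* (7.1e-05), and *LCP5*, a small subunit processome gene, by 1.76 ± 0.16 (1e-07) and 1.49 ± 0.17 (2e-06). Between *set1Δ* and *jhd2Δ* 16 of the list were lower in *set1Δ* and 0 higher, where 8.31% of all transcripts were called. The list's median was -0.29 there, where *YGR035C* and *YGR079W* had -1.49 and -1.21 and *YCR016W* -0.08. Between *SET1-G990E* and *SET1* 2 were higher, *RRP36* (0.65) and *MAK16* (0.63), where 0.231% of all transcripts were called. The median was 0.19.

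The DNA damage-induced genes, to which *YOR289W* is known to belong, were also tested, and nothing is read from their counts of calls. Of 24 tested, *YOR289W* not among them, 2 rose and 2 fell in *jhd2Δ* (12.2% of all transcripts were called there), 0 were called in *set1Δ* by edgeR or DESeq2 (9 and 7 had an unadjusted p under 0.05; of all transcripts 8.58% were called), 1 rose with *SET1* (7.69%) and 1 rose and 1 fell with *SET1-G990E* overexpression (12.0%). The medians were -0.15, 0.03, -0.07 and -0.06, where *YOR289W* had -0.77, -0.70, -0.89 and -0.70. *RNR1*, which encodes the large ribonucleotide reductase subunit, rose in *jhd2Δ* by 0.81 ± 0.07 (edgeR adjusted p = 8.4e-08), and *MAG1*, a DNA glycosylase gene, fell by 0.63 on the log2 scale (8.1e-06).

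The transcripts most alike to each gene over the 15 libraries, by Pearson correlation of log2 CPM, are a description, since libraries of a strain and library sizes are shared and the strains fall into separate levels. Closest to *YGR079W* were the ribosome assembly genes *NOG2* (0.99), *DBP8* (0.99) and *UTP4* (0.98). These encode a GTPase of the large subunit, an RNA helicase and a processome protein of the small subunit. Closest to *YGR035C* were the RNA helicase gene *HAS1* (0.98), *RIX1* (0.97) and *ENP1* (0.97), which also act in subunit assembly, and closest to *YCR016W* were the tRNA methyltransferase subunit gene *GCD10*, *NOP15* and *RLP24* (all 0.97). Of these 9 genes 7 stand on the ribosome assembly list, which holds 124 of the 5619 transcripts tested, 3 for *YGR079W* and 2 for each of the others. The same libraries chose the 7 genes, and the list was written with earlier results of these data known, so nothing is read from this count. *YGR035C* and *YGR079W*, with 0.95 between them, were closer to each other than to *YCR016W* (0.74 and 0.82). A correlation does not measure the size of a change. In *jhd2Δ*, *set1Δ*, *SET1* and *SET1-G990E* overexpression, *HAS1* had log2 fold changes against WT of 0.30, 0.09, 0.22 and 0.29. *ENP1* had 1.21, 0.56, 0.90 and 1.09, and *YGR035C* had 2.26, 0.78, 1.62 and 2.06.

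The genes lower in the mutants had other company. Closest to *YMR206W* were *RGI1*, a gene induced in respiratory growth (0.98), *MDH1*, the mitochondrial malate dehydrogenase gene (0.98), and the zinc cluster regulator-like gene *YFL052W* (0.98). Closest to *YNR014W* were the mitochondrial ATPase gene *AFG1* (0.95), *MSC1* (0.94) and *YFR017C*, which encodes an inhibitor of glycogen debranching (0.94), and closest to *YOR289W* were *COX5B*, a cytochrome oxidase subunit gene (0.94), the ceramidase gene *YPC1* (0.93) and *YPI1* (0.93). *YNR064C* was closest to *EMC2*, an endoplasmic reticulum membrane complex gene (0.96), *RFA2*, a replication protein A subunit gene (0.96), and *PEX4*, a peroxisomal ubiquitin-conjugating enzyme gene (0.95), and its correlation with the other 6 genes ran from -0.22 with *YGR035C* to 0.38 with *YCR016W*.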

How the data were processed

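Per the labels and the study's methods, the authors aligned reads with Novoalign 2.8.1 to sacCer3 and counted them per gene and strand with USeq. The deposited values used are raw whole-number counts per library, sense and antisense. The deposited table also holds FPKM and regularized log values and the authors' own DESeq comparisons (log2 ratios and false discovery scores), which were not used. All count columns matched a sample.

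Counts were TMM-normalized per strand, filtered with filterByExpr (min.count 10; 5619 sense and 2640 antisense transcripts kept) and tested in R 4.3.3 with edgeR 4.0.16 (glmQLFit and glmQLFTest) in a single fit over 15 libraries. Calls needed a Benjamini-Hochberg adjusted p under 0.05 over all transcripts and a change of 1.5-fold or more. Normalized counts are scaled to a common library size. The common biological coefficient of variation was 0.067 for sense and 0.080 for antisense counts. The fit was also run on simulated counts. These had a single spread for all transcripts, so the run says little about genes whose cultures spread more widely. Sequences and motifs were read from RefSeq R64 with biopython 1.88. Intervals cover the spread between cultures as the fit estimates it.

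The genes and the 3 lists were chosen with earlier results of these data known. The text names the 7 genes, *SET1* and *JHD2*, nearest neighbours, duplicates, the 3 most correlated transcripts per gene (*SET1*, *JHD2* and *URA3* left out) and, per list and comparison, called genes from the 4 with the most change. Alternatives were DESeq2 1.42.0, its size factors, other filters, glmTreat, 6-library fits, a replicate block, sense-based scaling of antisense counts, and each library left out.

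Same-numbered cultures deviated together by the rule of a correlation over 0.1 in every pair for *set1Δ* with WT (0.34, 0.14 and 0.30) and with *jhd2Δ* (0.23, 0.14 and 0.12) on the sense strand. The other comparisons did not meet this rule, and *jhd2Δ* with WT missed it narrowly on the sense strand (0.15, 0.24 and 0.098). The pairing comes from these data, not from the labels.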

Additional observations from a re-analysis of the deposited data

How the results depend on the processing

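No member's called difference changed sign under any alternative. Of 467 values of the 7 genes under alternatives other than leaving out a library, 464 moved by less than the SD between cultures and 17 crossed the line for a call. Of 990 values with 1 library left out, 6 crossed the line. That all 990 stayed within that SD shows little, since leaving out 1 of 3 cultures can hardly move a mean by as much. The library left out was also often not part of the comparison. Testing the 1.5-fold threshold itself (glmTreat) left 3 of the 7 genes called in *jhd2Δ* (6 without it), 1 in *set1Δ* (7 without it) and 0 on the antisense strand in *set1Δ* (1 without it), as follows from a test that asks for a difference beyond 1.5-fold. It also dropped *YCR016W* and *YOR289W* with *SET1-G990E* overexpression and *YMR206W* between the deletions, and no call with *SET1* overexpression. With sense library sizes, 0 antisense calls remained in *set1Δ*, and the antisense values of *set1Δ* moved to 0.46 for *YNR064C* against WT, 0.37 for *YNR064C* against *jhd2Δ* and -0.43 for *YNR014W* against *jhd2Δ*. In *SET1* overexpression, antisense *YNR064C* (0.60) became 1 call with only the 6 libraries compared, with the replicate block or under the strict filter, and for these changes the cause was not tested. With a replicate block no sense call of the 7 genes changed, and the pairing moved no other antisense call. Leaving out libraries gave 0 to 1 antisense call between *set1Δ* and *jhd2Δ*, the single one being *YOR289W* without the first *set1Δ* culture. DESeq2 called 0 drug resistance genes with *SET1-G990E* overexpression, where edgeR called 1, *YLR346C*. The count of all calls moved by less than 1.5 times in the other comparisons of each list and of the neighbours, while drug resistance genes called higher in *set1Δ* than in *jhd2Δ* numbered 1 by DESeq2 and 2 by edgeR. The strict filter kept 1 of the 7 genes on the antisense strand. Depth limits the antisense values, since 3 of the 7 genes did not pass the main filter there.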
